A study of Rattus norvegicus with 24 samples.

Results

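The comparison described here asked whether dietary lithium changed gene expression differently in renal medulla and renal cortex of the same rats. All 24 arrays entered it, 1 cortex and 1 medulla array from each of 12 male Wistar rats. For 6 months, 6 control rats ate standard chow. The 6 lithium-treated rats received food with 40 mmol lithium per kg for 7 days and 60 mmol per kg thereafter, also for 6 months in all, with a salt block that the control rats were not said to have, so that lithium and the salt block cannot be told apart. Pieces of both tissues were cut from the frozen kidneys once these had begun to thaw, and the RNA of each piece was labelled and hybridised to an Affymetrix rat array. For every transcript cluster, the array's unit of a gene, the log2 signal in cortex was subtracted from the log2 signal in medulla of the same animal, and these differences were compared between the diets. The value that results is the lithium effect in medulla minus the lithium effect in cortex, and is called the tissue difference of the lithium effect below. Of 28894 clusters, 16388 reached a log2 signal of 6 on at least 4 of the 12 arrays of cortex or of medulla and were tested, and 9654 of the genes named by 1 symbol were among them.

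The deposited cortex array of treated animal 17 held, in every cluster, the mean of the other 5 treated cortex arrays, with a largest deviation of 8e-05. It therefore carried no measurement of its own. Treated cortex levels are given for 5 animals, while the fits used all 12 animals with that mean in place, and every call was repeated without animal 17. The labels and methods give no scan dates, but scan groups could be recovered from the values. The medulla arrays fell into 3 groups, each with 2 control and 2 treated rats. The cortex arrays fell into the same groups, except that animal 17 stood alone. The group was a covariate in each fit, and the tissue difference was fitted with the 3 medulla groups. The medians of the arrays were 5.75 to 5.83 in cortex and 6.12 to 6.22 in medulla. Within animals the medulla median exceeded the cortex median by 0.33 to 0.39 in control rats and by 0.36 to 0.43 in the 5 treated rats with own cortex values. The offset common to both diets cancels when the diets are compared, and it enters any level set across the tissues. No background measurement accompanied the signals, so a log2 level near the array median or under it is not shown to lie above background, and a fold taken from such a level is a ratio of signals whose bound could not be given.

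The labels of the tissues were checked with cell type markers in the control rats. In 23 of 29 proximal tubule genes all 6 medulla arrays lay below all 6 cortex arrays, and none lay above. In 5 of 6 thin limb genes and 17 of 26 principal cell and water handling genes all 6 medulla arrays lay above. They lay above in 3 of 13 thick ascending limb genes. Of 24 intercalated cell genes, 3 lay below and 4 above. The share of all clusters that separate in this way was not counted, and the higher medians of the medulla arrays favour counts above. Podocyte genes separated the tissues in both directions, with 4 of 9 below in medulla and 3 above. Their median difference was -0.08, so this list gave no support to the labels. Markers of the thick ascending limb, a segment that runs through outer medulla and cortex, averaged between 7.68 and 10.53 over the 13 genes in the medulla portions of control rats and between 6.76 and 9.70 in those of treated rats, so the level of these markers varied by over 2 log2 units among portions of 1 diet. In such bulk samples, fewer cells of a type and less RNA per cell cannot be told apart.

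Lithium given over months reduces the ability of the kidney to concentrate urine, a condition called nephrogenic diabetes insipidus. The ion enters the principal cells of the collecting duct through the epithelial sodium channel, and these cells lose aquaporin-2, the water channel that vasopressin places in their apical membrane. The collecting duct starts in the cortex and descends through the medulla, beside thin and thick limbs that keep the medullary interstitium hypertonic. Cortex also holds the glomeruli, most proximal tubule and the connecting tubule, so the tissues differ in the cells they hold.

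Tissue differences of 4 genes passed the test whichever animal was left out, and the 250 bases before the transcription start are shown for the 3 of them that the promoter table held, Adm2, Ccl28 and Kcne1, to give the sequence in front of the genes that the results turn on. No sequence is given for Defb11. The sequences are RefSeq's on the rat build GRCr8, which is not the build rn4 named in the submitters' processing notes, and they were not measured by the arrays. They lie at chr7:122272558-122272807 on the plus strand for Adm2, chr2:53333821-53334070 on the plus strand for Ccl28 and chr11:45077034-45077283 on the minus strand for Kcne1, and are written 5′ to 3′ along the gene. Capitals mark a match to a searched motif.
Adm2: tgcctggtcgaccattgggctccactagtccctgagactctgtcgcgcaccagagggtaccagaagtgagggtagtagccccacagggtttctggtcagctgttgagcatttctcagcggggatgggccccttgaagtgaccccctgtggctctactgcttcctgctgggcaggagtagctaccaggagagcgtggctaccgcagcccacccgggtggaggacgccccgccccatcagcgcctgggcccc
Ccl28: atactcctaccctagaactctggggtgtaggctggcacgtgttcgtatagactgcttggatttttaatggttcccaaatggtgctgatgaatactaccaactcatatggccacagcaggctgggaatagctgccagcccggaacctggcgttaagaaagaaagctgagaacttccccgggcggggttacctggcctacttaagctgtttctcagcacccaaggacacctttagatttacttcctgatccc
Kcne1: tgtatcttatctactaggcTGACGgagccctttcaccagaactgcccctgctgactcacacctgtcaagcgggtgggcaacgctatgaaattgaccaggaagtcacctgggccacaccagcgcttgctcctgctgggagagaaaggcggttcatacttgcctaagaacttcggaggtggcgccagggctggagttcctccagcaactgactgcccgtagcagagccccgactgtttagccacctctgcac

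The motifs were searched on both strands. They were the cyclic AMP response element TGACGTCA, the shorter TGACG, which that element contains, the core TGGAAA of the tonicity element and the core CTTTG of TCF/LEF sites. TGACG occurred once in the Kcne1 window, starting 231 bases before the start (position -231), and 18.2% of 33469 windows of the same length held it. TGACGTCA was found in 1.59% of all windows, TGGAAA in 19.7% and CTTTG in 48.2%. None of these letters occurred in the Adm2 and Ccl28 windows.

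The lithium effect differed between the tissues in 14 clusters, which is 0.0854% of those tested (limma, Benjamini-Hochberg adjusted p under 0.05). In 12 of them (0.0732%) lithium had the more positive effect in medulla, and in 2 (0.0122%) the more positive effect in cortex. Named genes accounted for 9 of the 14 (0.0932% of the named genes tested), namely Defb11, Kcne1, Adm2, Ccl28, Nt5c1a, Vsig1, Anxa5, Arrdc4 and Klk1. The other 5 clusters carried no gene symbol. At an unadjusted p under 0.05 there were 2778 clusters. Without scan group in the fit the effects were identical and the errors differed, and 345 clusters (2.11%) passed, 155 higher (0.946%) and 190 lower (1.16%), among them all 14. The adjusted p was 0.04997 for the last cluster inside the threshold and 0.0581 for the first outside it. Of the 14, 5 had reached the filter bound through 1 diet alone, Defb11 and Kcne1 through control cortex and Ccl28, Vsig1 and 1 unnamed cluster through treated arrays, so that a difference between the diets was built into their entry. Without any filter the tissue differences of Defb11, Kcne1, Adm2, Ccl28, Nt5c1a and Vsig1 passed, and those of Anxa5, Arrdc4 and Klk1 did not. Each of the 14 had no overlap between the within-animal differences of the 5 treated rats with their own cortex values and those of the 6 control rats, a pattern that 525 clusters, 3.2% of those tested, showed. The exact permutation test over the 12 animals (2-sided) gave p = 0.00216 for each of the 14, the smallest value it can give here. The 14 were selected on these same differences, so this value adds no support of its own. How many of all clusters reach it was not counted. The divisions ignored scan group, and animal 17 entered with the mean in place of its cortex value.

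Considered alone, lithium changed 84 clusters in cortex (0.513%), 69 of them higher (0.421%) and 15 lower (0.0915%), and 185 in medulla (1.13%), 130 higher (0.793%) and 55 lower (0.336%). Both tissues shared 21 of these, 25.0% of the cortex calls and 11.4% of the medulla calls, and all 21 moved the same way, 19 up and 2 down. No cluster passed the threshold in both tissues with opposite signs. In the cortex fit animal 17 formed a scan group of its own and had no weight, and 84 clusters were called without it as well, while 68 were called in medulla without it. With 1 animal left out at a time the counts ran from 37 (without control animal 15) to 101 (without treated animal 19) in cortex and from 50 (without treated animal 21 or 22) to 1029 (without treated animal 6) in medulla. Of the 63 clusters called in cortex but not in medulla, only 4 also passed the test of the tissue difference, and of the 164 called in medulla but not in cortex, 9 did. Among the 63, 47 had the same sign in medulla, and among the 164, 130 had the same sign in cortex.

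**Figure D1:**
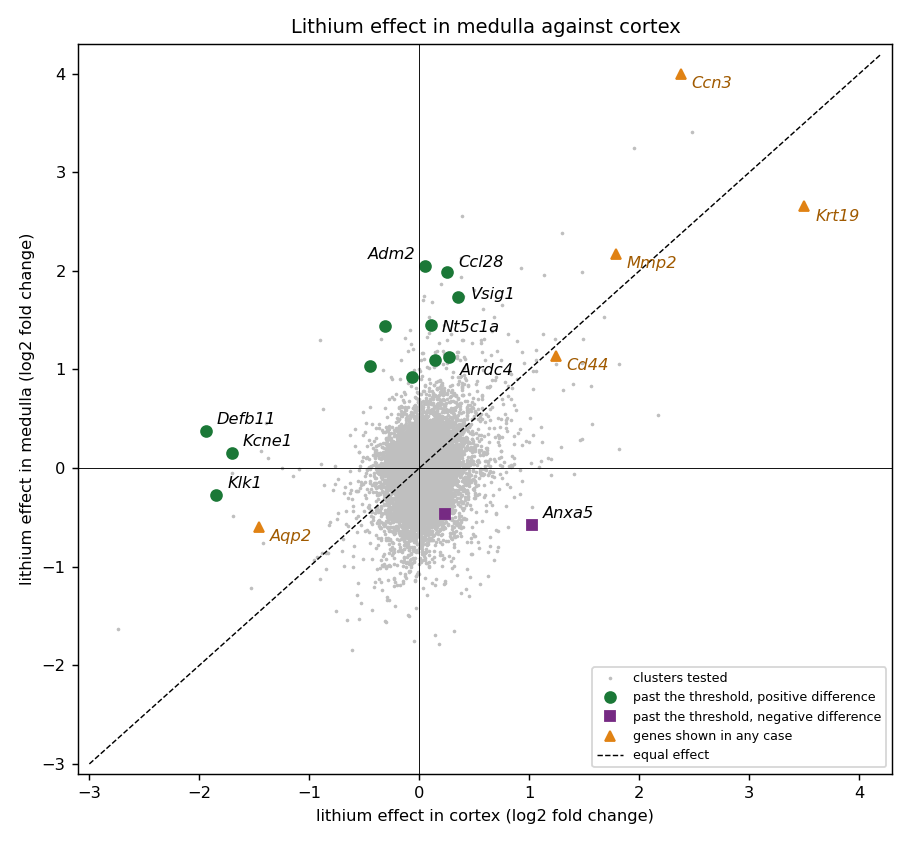
Lithium effect (treated minus control, log2 fold change) in medulla on the vertical axis against that in cortex on the horizontal axis, 1 point for each of 16388 clusters. Green circles (12) and purple squares (2) passed the test of the tissue difference, orange triangles are 5 genes shown in any case, and the dashed line marks an equal effect. Defb11, Kcne1 and Klk1 lie far to the left near a medulla effect of 0, while Adm2, Ccl28 and Vsig1 lie high near a cortex effect of 0.

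The 14 clusters were sorted by the 95% intervals of the effects within each tissue. In 4 of them both intervals excluded 0 with opposite signs (Defb11, Anxa5 and 2 unnamed clusters). In 1, Kcne1, the effect lay in cortex, and the medulla interval stayed within 1.5-fold of no effect either way. In 4 the effect lay in medulla with the cortex interval within that bound (Adm2, Nt5c1a and 2 unnamed clusters). Ccl28 and Arrdc4 had intervals above 0 in both tissues, and the 3 remaining clusters (Vsig1, Klk1 and 1 unnamed) fitted none of these descriptions. The intervals are not adjusted for the number of clusters, and for none of the 4 clusters with opposite signs did both effects pass the adjusted threshold.

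Defb11 encodes a beta-defensin, a member of a family of secreted antimicrobial peptides of epithelia. In cortex its log2 signal ranged from 6.59 to 7.61 in control rats (median 7.25, n = 6) and was 5.77, 4.95, 4.92, 5.18 and 5.33 in treated animals 6, 18, 19, 21 and 22. In medulla it ranged from 4.47 to 5.03 in control rats (median 4.81) and from 5.01 to 5.29 in treated rats (median 5.15, n = 6). All treated cortex values lay under all control values. In medulla the treated values were the higher ones, and the ranges overlapped at their edges. Lithium reduced the cortex signal 3.84-fold (log2 -1.94, 95% interval -2.43 to -1.45, adjusted p = 0.00238). The medulla effect of 0.37 (0.13 to 0.61) had an adjusted p of 0.118 and did not pass. The tissue difference was 2.31 (standard error 0.21, interval 1.86 to 2.77, adjusted p = 0.00196), and within the 3 scan groups it was 1.45, 2.87 and 2.35, the first from treated animal 6 alone because animal 17 was left out there. The medulla levels were under the medians of the medulla arrays and 4 of the 5 treated cortex levels under 5.75, the lowest median of the cortex arrays, so neither is shown to lie above background. In control rats the cortex signal exceeded the medulla signal by 1.63 to 2.72, and in treated rats the difference of medulla minus cortex was between -0.62 and 0.34.

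Anxa5, annexin A5, is a calcium-dependent protein that binds phosphatidylserine on membranes. It ran the other way. Control cortex values were between 6.88 and 7.46 (median 7.17), and the treated cortex values were 8.27, 7.89, 8.71, 7.93 and 8.21 in animals 6, 18, 19, 21 and 22. Control medulla values lay between 9.06 and 10.04 (median 9.56) and treated medulla values between 8.38 and 9.58 (median 8.98). Cortex groups did not overlap, and medulla groups did. The cortex signal rose 2.03-fold (log2 1.02, 0.68 to 1.37, adjusted p = 0.0157), and the medulla effect was -0.58 (-1.03 to -0.12, adjusted p = 0.162). The tissue difference of -1.60 (standard error 0.25, adjusted p = 0.0459) was -1.10, -1.81 and -1.33 in the scan groups. Without treated animal 17, whose medulla value was the lowest of the 6, it did not pass. In the 11 animals with own values in both tissues Anxa5 was higher in medulla than in cortex, by 1.61 to 2.88 in control rats and by 0.36 to 1.31 in the 5 treated rats. Other annexins on the array were added after their values were seen. Anxa2 rose in cortex (2.30-fold, adjusted p = 0.0437) with a medulla effect of -0.07 and a tissue difference of -1.27 (adjusted p = 0.0890), whereas Anxa1 and Anxa3 had tissue differences of -0.33 and 0.15 (adjusted p = 0.578 and 0.728).

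The unnamed clusters with opposite signs had smaller effects. The first had a cortex effect of -0.45 and a medulla effect of 1.04 (adjusted p = 0.366 and 0.0244), with a tissue difference of 1.49 (adjusted p = 0.00376). The second had 0.23 in cortex and -0.47 in medulla, neither of them past the threshold (adjusted p = 0.652 and 0.0838), and a tissue difference of -0.70 (adjusted p = 0.04997).

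Kcne1 encodes a small membrane protein that joins voltage-gated potassium channels such as Kcnq1 and alters their gating. The cortex signal was 6.54 to 6.78 in control rats (median 6.65) and 5.09, 5.31, 4.57, 4.99 and 4.78 in treated animals 6, 18, 19, 21 and 22. In medulla the signal was 3.77 to 4.83 in control rats (median 4.29) and 4.12 to 4.86 in treated rats (median 4.50). The cortex groups were more than 1 log2 unit apart, and the medulla groups overlapped almost fully at levels under the array medians. The treated cortex values lay under the medians of the cortex arrays and are not shown to lie above background. Lithium lowered the Kcne1 signal in cortex 3.26-fold (log2 -1.71, -1.99 to -1.42, adjusted p = 0.000167). The medulla effect was 0.15 (-0.24 to 0.55, adjusted p = 0.667) and the tissue difference 1.86 (standard error 0.20, 1.43 to 2.29, adjusted p = 0.00376), with 1.31, 1.78 and 2.05 in the scan groups. The control medulla signal is not shown to lie above background, so a decrease there could not be measured. Kcnq1, the channel subunit, did not follow it. Its cortex effect was 0.19 (adjusted p = 0.813), it rose in medulla (0.89, adjusted p = 0.0310), and its tissue difference was 0.71 (adjusted p = 0.133).

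Klk1 is tissue kallikrein, a protease secreted by the connecting tubule that releases kinins. Its signal was high in control cortex, 10.23 to 11.29 with a median of 10.96, and lower in treated cortex, at 9.30, 9.28, 7.95, 8.91 and 9.46 in animals 6, 18, 19, 21 and 22. Control medulla gave 7.11 to 7.83 (median 7.25) and treated medulla 6.39 to 7.89 (median 7.12). The diets were apart in cortex and overlapped in medulla. The decrease in cortex was 3.60-fold (log2 -1.85, -2.48 to -1.22, adjusted p = 0.0166), the medulla effect was -0.27 (-0.80 to 0.25, adjusted p = 0.551), and the tissue difference was 1.57 (standard error 0.25, adjusted p = 0.04997). It was 1.29, 2.49 and 0.72 in the scan groups. Rat kallikreins are a family of near-identical genes whose probes can share transcripts, so the identity of this signal is uncertain. Of 2 relatives looked at after their values were seen, Klk1b3 fell in cortex (-2.74, adjusted p = 0.00135) and in medulla (-1.63, adjusted p = 0.0143) with a tissue difference of 1.11 (adjusted p = 0.0847). Klk1c9 had a cortex effect of -1.70 (adjusted p = 0.0618), a medulla effect of -0.05 and a tissue difference of 1.65 (adjusted p = 0.0781). Its medulla signals, 4.29 to 5.01 in control rats and 4.38 to 4.72 in treated rats, lay under the array medians. They are not shown to lie above background, so a decrease of Klk1c9 in medulla could not be measured.

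Adm2 is adrenomedullin 2, also called intermedin, a peptide of the calcitonin family that widens vessels through receptors shared with its relatives. Its cortex signal was 7.30 to 7.60 in control rats (median 7.54) and 7.52, 7.65, 7.35, 7.50 and 7.77 in treated animals 6, 18, 19, 21 and 22. In medulla it was 6.15 to 6.48 in control rats (median 6.29) and 7.70 to 9.05 in treated rats (median 8.40). Cortex values of the diets were intermixed, and the lowest treated medulla value was more than 1 log2 unit above the highest control. The control medulla values were near the array medians and are not shown to lie above background. Lithium raised Adm2 4.14-fold in medulla (log2 2.05, 1.63 to 2.47, adjusted p = 0.00130), against a cortex effect of 0.05 (-0.17 to 0.28, adjusted p = 0.938). The tissue difference was 2.00 (standard error 0.22, 1.52 to 2.48, adjusted p = 0.00435), and the scan groups gave 1.44, 2.24 and 1.66. In every control rat Adm2 was higher in cortex than in medulla, and in every treated rat with its own cortex value the medulla signal was the higher one, by 0.18 to 1.12. In the lower part of that range the difference was smaller than the offset of the array medians.

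Ccl28 encodes a chemokine of mucosal epithelia that attracts lymphocytes and antibody-secreting cells. Signals in cortex were 5.66 to 5.96 in control rats (median 5.81) and 6.00, 6.21, 5.98, 5.83 and 6.20 in treated animals 6, 18, 19, 21 and 22, so the groups overlapped. Signals in medulla were 5.36 to 5.73 in control rats (median 5.46) and 6.73 to 8.02 in treated rats (median 7.46), without overlap. The control values in both tissues were near or under the array medians and not shown to lie above background. The medulla signal rose 3.97-fold (log2 1.99, 1.55 to 2.43, adjusted p = 0.00160). The cortex effect of 0.25 (0.03 to 0.48) had the same sign and an adjusted p of 0.619. The tissue difference was 1.74 (standard error 0.21, 1.28 to 2.20, adjusted p = 0.00938) and ran from 0.94 to 1.89 over the scan groups.

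Nt5c1a encodes a cytosolic nucleotidase that forms adenosine from AMP. In cortex its control values were 5.89 to 6.28 (median 6.06), and its treated values were 6.07, 6.35, 5.90, 6.27 and 6.38 in animals 6, 18, 19, 21 and 22. In medulla its control values were 4.74 to 5.31 (median 4.99) and its treated values 6.00 to 6.68 (median 6.54). The diets were intermixed in cortex and apart in medulla, where the control values lay under the array medians and are not shown to lie above background. The rise of the medulla signal was 2.73-fold (log2 1.45, 1.13 to 1.77, adjusted p = 0.00160), with a cortex effect of 0.10 (-0.15 to 0.36, adjusted p = 0.884) and a tissue difference of 1.35 (standard error 0.18, adjusted p = 0.0168). The scan groups gave 0.92, 1.71 and 1.13.

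Vsig1 encodes a membrane protein with immunoglobulin domains that is known from the stomach epithelium. Its cortex signal was 4.50 to 4.81 in control rats (median 4.64) and 4.96, 5.57, 4.44, 5.12 and 4.85 in treated animals 6, 18, 19, 21 and 22. Its medulla signal was 4.45 to 5.25 in control rats (median 4.67) and 5.94 to 6.76 in treated rats (median 6.55). Only the treated medulla values lay near or above 6, the lower bound of the filter. The control medulla and all cortex values lay under the array medians and are not shown to lie above background. The Vsig1 signal rose 3.33-fold in medulla (log2 1.74, 1.35 to 2.12, adjusted p = 0.00160). The cortex interval of -0.03 to 0.73 around 0.35 reached beyond 1.5-fold, so an effect in cortex in the same direction was not bounded away (adjusted p = 0.713). The tissue difference was 1.39 (standard error 0.21, adjusted p = 0.0394), and was 0.71, 1.50 and 1.61 in the scan groups.

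Arrdc4 belongs to the alpha-arrestins, adaptors for the removal of membrane proteins. In cortex it ranged from 6.48 to 6.96 in control rats (median 6.72) and was 6.95, 6.89, 7.21, 6.75 and 7.09 in treated animals 6, 18, 19, 21 and 22. In medulla it ranged from 6.34 to 6.95 (median 6.52) and, under lithium, from 7.49 to 8.20 (median 7.65). The groups overlapped in cortex and were apart in medulla. It rose 2.18-fold in medulla (log2 1.13, 0.77 to 1.48, adjusted p = 0.0112). The cortex effect was 0.27 (0.01 to 0.53, adjusted p = 0.647) and the tissue difference 0.85 (standard error 0.14, adjusted p = 0.04997).

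A further 3 unnamed clusters completed this group. For 2 of them the effect lay in medulla, with medulla effects of 1.10 and 0.92 (adjusted p = 0.00352 and 0.0154) against 0.14 and -0.07 in cortex, and tissue differences of 0.96 and 0.99 (adjusted p = 0.0128 and 0.0168). The last had a medulla effect of 1.45 (adjusted p = 0.00586), a cortex effect of -0.31 (adjusted p = 0.721) and a tissue difference of 1.75 (adjusted p = 0.0194).

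**Figure D2:**
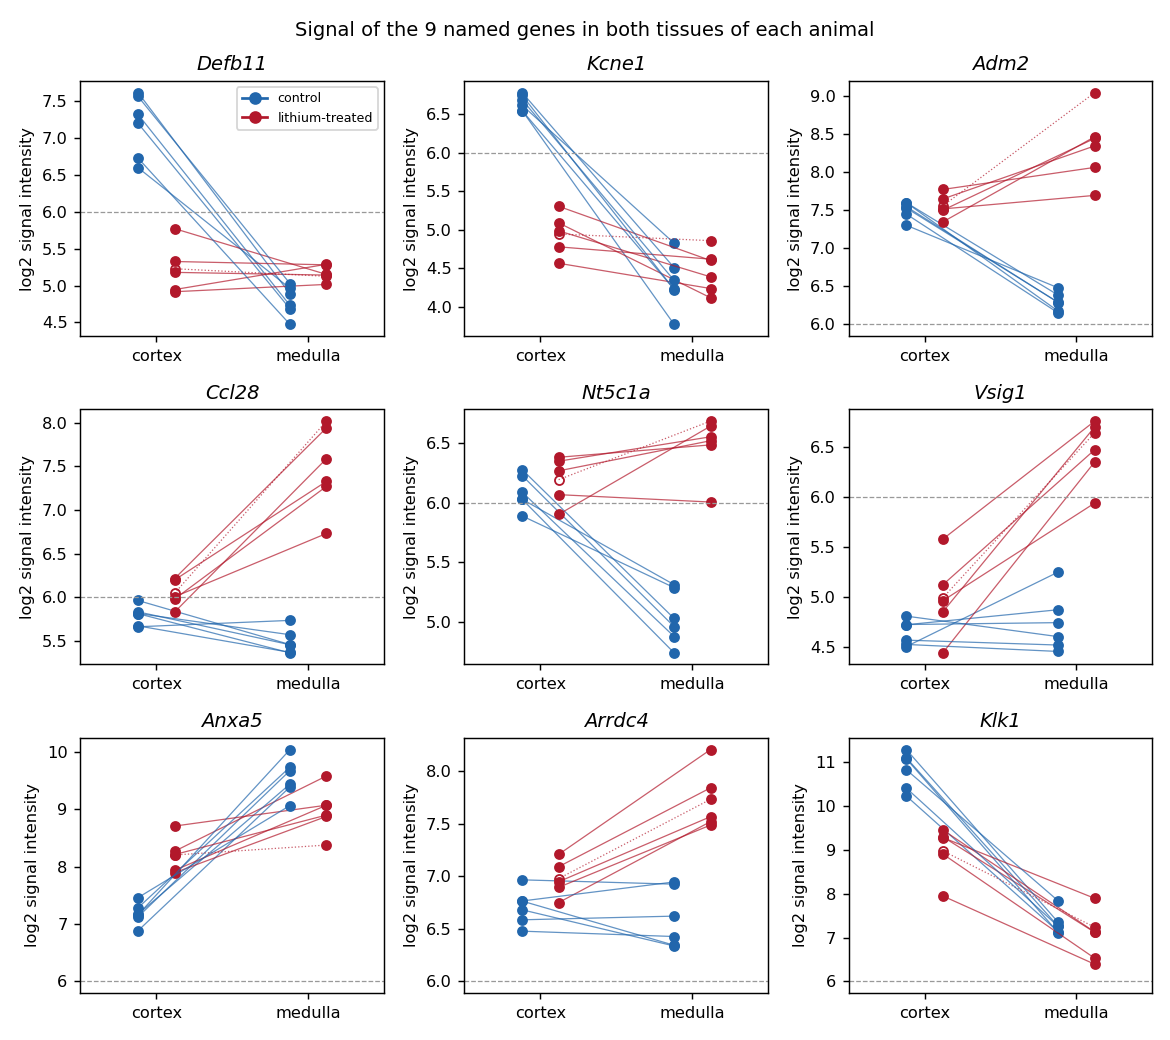
Log2 signal intensity (vertical axes) in cortex and medulla of each animal for the 9 named genes, control rats in blue and lithium-treated rats in red, with a line joining both tissues of an animal and a dashed line at the filter bound of 6. Open circles and dotted lines stand for treated animal 17, whose cortex array holds the mean of the other treated rats. The red cortex points lie under the blue for Defb11, Kcne1 and Klk1, and the red medulla points lie above the blue for Adm2, Ccl28, Nt5c1a, Vsig1 and Arrdc4.

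Levels in the control kidney differed between tissues for 6 of the 9 named genes. In each of the 6 control rats Defb11, Kcne1, Klk1, Adm2 and Nt5c1a gave a higher signal in cortex than in medulla, although the medulla arrays had the higher medians, and Anxa5 gave a higher signal in medulla by more than the offset. In treated rats the signals were closer together for Defb11, Kcne1, Klk1 and Anxa5. For Adm2 and Nt5c1a the median of medulla minus cortex was 0.70 and 0.20 in treated rats, above and below the offset of the array medians. Control levels enter the tissue difference itself, so this is a description of the same values. Ccl28, Vsig1 and Arrdc4 had similar signals in both tissues of control rats, with a median within-animal difference of -0.34, -0.02 and -0.05.

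Treated animal 6 had the lowest treated medulla value for Adm2, Ccl28, Nt5c1a and Vsig1, and animal 17 the highest for Adm2, Ccl28 and Nt5c1a. Markers of nephron segments varied among these portions too. The mean of the 29 proximal tubule genes in medulla was 7.996 in treated animal 6 and 6.57 in treated animal 17, the extremes of the treated rats, and the mean of the 13 thick ascending limb genes was 9.70 and 6.76 in the same portions, again the extremes. The part of these portions in the results was not tested.

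Calls for Defb11, Kcne1, Adm2 and Ccl28 held in each of the 12 fits that left out 1 animal. Their highest adjusted p over these fits was 0.0147, 0.0237, 0.0278 and 0.0475. The other 5 named genes did not keep their calls. Nt5c1a passed in 8 of the 12 fits, Klk1 in 3, and Vsig1, Anxa5 and Arrdc4 in 2 each. Without animal 17, which has no cortex measurement of its own, 5 clusters passed, all among the 14, and the named genes among them were Defb11, Kcne1, Adm2 and Ccl28. Without treated animal 6, 61 clusters passed, among them all 14. With both animals left out, a setting chosen after seeing the data, 10 clusters passed, and again Defb11, Kcne1, Adm2 and Ccl28 were the named genes of the 9 that kept their call.

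**Figure D3:**
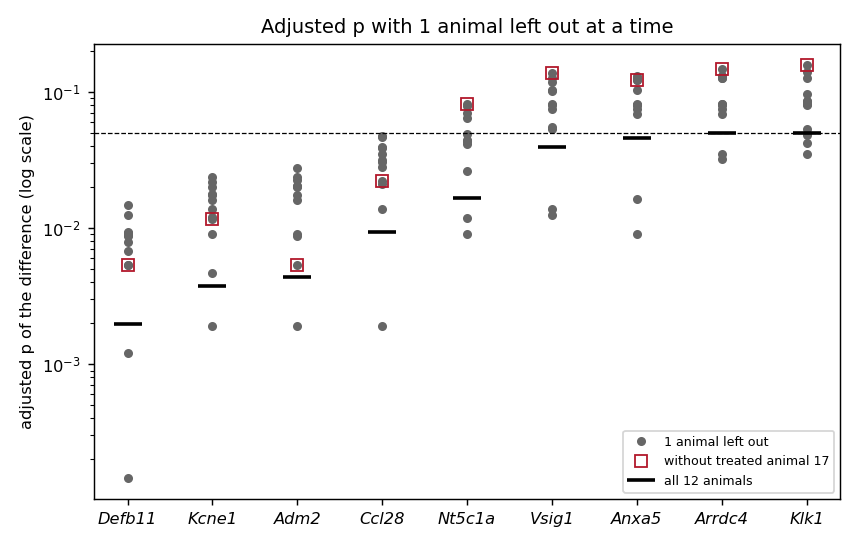
Adjusted p of the tissue difference on a log scale (vertical axis) for the 9 named genes with 1 animal left out at a time (grey points), with all 12 animals (black bars) and without treated animal 17 (red squares). The dashed line is the threshold of 0.05. All points of Defb11, Kcne1, Adm2 and Ccl28 lie under the line, with a highest value of 0.0475, and points of the other 5 genes lie on both sides.

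Genes just outside the threshold are given by the 10 smallest unadjusted p in each direction and did not pass the test of the tissue difference. Trpv6 and Trpv5, epithelial calcium channels of the connecting tubule and distal nephron, had tissue differences of 1.03 (0.65 to 1.40, adjusted p = 0.0581) and 2.17 (1.37 to 2.97, adjusted p = 0.0590). Trpv5 was between 4.31 and 5.62 in control medulla (median 5.0) and between 6.33 and 8.20 in treated medulla (median 7.58), without overlap. In cortex Trpv5 was 6.55 to 7.06 in control rats and 7.36, 7.01, 7.56, 6.83 and 7.21 in treated animals 6, 18, 19, 21 and 22. Both channels rose in medulla, Trpv5 by 2.55 (adjusted p = 0.00710) and Trpv6 by 1.61 (adjusted p = 0.00533), against cortex effects of 0.38 and 0.58 (adjusted p = 0.590 and 0.332). Trpv6 reached the filter bound through treated arrays alone. In control rats Trpv6 was 5.34 to 6.02 in medulla and 5.22 to 5.90 in cortex. Control medulla levels of both channels lay under the array medians, and control cortex levels of Trpv6 near or under them. These levels are not shown to lie above background. For Trpv5 the tissue difference in the scan groups was uneven, 0.12 in the group whose treated cortex value came from animal 6 alone and 3.23 and 2.47 in the other two.

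The 9 genes next to the threshold with the more negative effect in medulla were Aass, Fads1, Manea, Zmpste24, Tm7sf2, Tfpi, Asap1, Esm1 and Fads2, with adjusted p from 0.0581 to 0.0833. Aass, an enzyme of lysine breakdown, fell in medulla (-1.22, adjusted p = 0.0472) with a cortex effect of 0.03 and a tissue difference of -1.25. Its medulla values were 7.55 to 8.51 in control rats and 6.17 to 7.60 in treated rats, with the highest treated value, in animal 6, inside the control range. Manea, a mannosidase of glycan trimming, and Tm7sf2, a sterol reductase of cholesterol synthesis, also fell in medulla (-0.77 and -0.73, adjusted p = 0.0466 and 0.0343), with tissue differences of -0.85 and -0.78. The fatty acid desaturases Fads1 and Fads2 had medulla effects of -1.17 and -0.86 (adjusted p = 0.0751 and 0.0741), cortex effects of 0.23 and 0.06, and tissue differences of -1.40 and -0.92 (adjusted p = 0.0630 and 0.0833). Tfpi, an inhibitor of coagulation, and Esm1, a proteoglycan of endothelium, had effects of 0.35 and 0.21 in cortex and -0.56 and -0.89 in medulla, none of which passed, and tissue differences of -0.91 and -1.09 (adjusted p = 0.0801 and 0.0817). Zmpste24, the protease that matures lamin A, and Asap1, an activator of Arf GTPase activity, had tissue differences of -0.66 and -0.69 (adjusted p = 0.0781 and 0.0817).

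**Figure D4:**
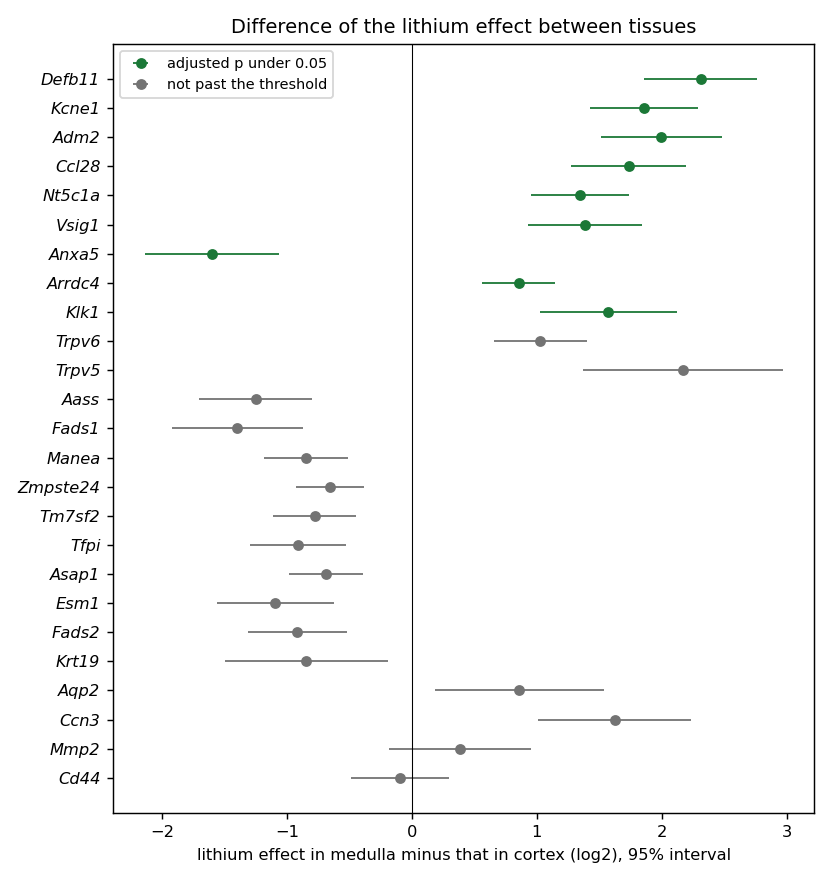
Tissue difference of the lithium effect (medulla minus cortex, log2, horizontal axis) with 95% intervals for the 25 genes chosen by rule. Green points passed the test and grey points did not. Among genes past the threshold the values run from -1.60 for Anxa5 to 2.31 for Defb11, and the intervals of Mmp2 and Cd44 span 0.

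Genes that lithium changed in both tissues were shown in any case, for scale. Ccn3, a matricellular protein formerly named Nov, rose by 2.38 in cortex (adjusted p = 0.000167) and by 4.0 in medulla (adjusted p = 7.14e-06). Its signals were 4.43 to 5.28 in control cortex, 7.32, 6.84, 7.62, 6.77 and 7.24 in treated cortex, 5.71 to 6.38 in control medulla and 9.01 to 10.24 in treated medulla. The control cortex and most control medulla values were under the array medians and are not shown to lie above background, and Ccn3 reached the filter bound through treated arrays. Its tissue difference was 1.63 (1.01 to 2.24), with an adjusted p of 0.0634 that missed the threshold. Keratin 19 (Krt19), a filament protein of simple epithelia, rose 11.3-fold in cortex and 6.29-fold in medulla (log2 3.50 and 2.65, adjusted p = 1.94e-05 and 0.00257), with a tissue difference of -0.85 (-1.50 to -0.20, adjusted p = 0.212). Control cortex Krt19 was 5.26 to 6.42, with values near or under the array medians that are not shown to lie above background. Matrix metalloproteinase Mmp2 and the hyaluronan receptor Cd44 rose by 1.79 and 1.24 in cortex and by 2.17 and 1.14 in medulla. Their tissue differences were 0.39 (-0.18 to 0.95) and -0.10 (-0.49 to 0.30), adjusted p = 0.461 and 0.814. Control cortex Cd44, 5.16 to 5.64, lay under the array medians and is not shown to lie above background.

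Aqp2, the vasopressin-regulated water channel, was 9.62 to 10.55 in control cortex (median 10.02) and 8.78, 8.29, 8.21, 8.49 and 8.89 in treated cortex of animals 6, 18, 19, 21 and 22. In medulla it was 11.50 to 12.60 in control rats (median 12.14) and 11.01 to 11.99 in treated rats (median 11.59). The groups were apart in cortex and overlapped in medulla. Aqp2 fell 2.75-fold in cortex (log2 -1.46, adjusted p = 0.00506), while the medulla effect of -0.60 (-1.13 to -0.06) had an adjusted p of 0.208. Although it passed in 1 tissue and not in the other, the tissue difference of 0.86 (0.18 to 1.54) did not pass (adjusted p = 0.218).

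The genes were also read through 30 lists of cell types and pathways. Of 455 list genes tested, 2 passed the test of the tissue difference, against 9 of all 9654 named genes (0.0932%). They were Klk1 among the 14 genes of the distal convoluted and connecting tubule and Kcne1 among the 26 of the principal cell and water handling list. The lists were chosen with earlier results of these data known, so the counts do not show that passing genes gather in the lists. Kcne1 also stood in the list of sodium pump and potassium channels. No member of the other lists passed, and the values that follow are medians and ranges. Counts of calls within a tissue stand against 0.421% higher and 0.0915% lower of all clusters in cortex and 0.793% higher and 0.336% lower in medulla. Over all 9654 named genes the median tissue difference was -0.07, with a median effect of 0.02 in cortex and -0.05 in medulla. Genes named from the lists below, apart from Klk1 and Kcne1 and those chosen by rule, were picked after their values were seen.

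In the 14 genes of the distal convoluted and connecting tubule the median tissue difference was 0.16, with 8 positive and 6 negative values. Klk1 and Slc8a1, the sodium-calcium exchanger of the connecting tubule, fell in cortex, where the list had no other call. Slc8a1 was 7.43 to 8.74 in control cortex and 6.51 to 7.39 in treated cortex, and its cortex effect was -1.40 (adjusted p = 0.0302). With a medulla effect of 0.46 (adjusted p = 0.141) its tissue difference was 1.86 and did not pass (adjusted p = 0.0703). Calb1, the calcium buffer calbindin of the same cells, had a cortex effect of -1.70 (adjusted p = 0.147) and a tissue difference of 1.21 (adjusted p = 0.129). Control medulla Calb1, 4.81 to 5.38, lay under the array medians and is not shown to lie above background. The size of a decrease there could not be measured. In medulla Trpv5 rose and Cnnm2, a magnesium-handling membrane protein, fell (-0.53, adjusted p = 0.0472).

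Among the 26 principal cell and water handling genes the signs were balanced, 13 positive and 13 negative, with a median tissue difference of 0.01. Cortex had 5 members lower (Kcne1, Aqp2, Scnn1b, Scnn1g and Hsd11b2) and 1 higher (Aqp4), and medulla had 1 higher, the phosphodiesterase Pde10a. In control rats Kcne1 was the 1 gene of the list with all 6 medulla arrays below all 6 cortex arrays, while 17 of the 26 lay above. The Kcne1 signal is thus not shown to come from principal cells. The subunits of the epithelial sodium channel Scnn1b and Scnn1g fell in cortex (-0.87 and -1.44, adjusted p = 0.0493 and 0.0210) and had medulla effects of 0.60 and 0.17 (adjusted p = 0.452 and 0.878). Hsd11b2, the enzyme that protects the mineralocorticoid receptor from glucocorticoids, fell in cortex (-0.90, adjusted p = 0.0131) with a medulla effect of 1.30 (adjusted p = 0.204). The tissue differences of these 3 genes were 1.47, 1.61 and 2.21, and none passed (adjusted p = 0.200, 0.215 and 0.132). The control medulla values of Hsd11b2 spread from 7.51 to 10.74. Aqp4, a water channel of the basolateral membrane, rose in cortex (2.17, adjusted p = 0.00517) and had a tissue difference of -1.64 (adjusted p = 0.131).

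The intercalated cell list had the highest median tissue difference of the 30 lists, 0.93 over 24 genes, of which 22 were positive, while none passed. These are the cells of the collecting duct that secrete acid or bicarbonate. The median effect was 0.97 in medulla and 0.08 in cortex, with 3 members higher in medulla and 1, the transcription factor Dmrt2, higher in cortex. Slc4a9, a transporter of their basolateral membrane, Oxgr1, a receptor for alpha-ketoglutarate, and Atp6v1g3, a subunit of the proton pump, rose in medulla by 1.99, 2.13 and 1.10 (adjusted p = 0.0162, 0.0425 and 0.0305). Their cortex effects were 0.29, 0.37 and 0.26, and their tissue differences 1.70, 1.76 and 0.83 (adjusted p = 0.140, 0.160 and 0.139). Slc4a9 was 6.22 to 8.17 in control medulla and 9.09 to 9.73 in treated medulla. The mean level of the 24 genes in medulla was 6.79 to 8.69 in control rats and 8.59 to 9.28 in treated rats, so that 1 control rat lay within the treated range, and in cortex the ranges were 7.85 to 8.42 and 7.75 to 8.60. The lowest control medulla mean belonged to animal 30, whose medulla portion also had the lowest control mean of thick ascending limb genes, 7.68, and of proximal tubule genes, 7.11. The part of the dissection in these values was not tested.

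Proximal tubule genes had a median tissue difference of -0.55, with 26 of 29 negative. Their effects had a median of -0.09 in cortex and of -0.67 in medulla, and no member passed in either tissue. The mean level of the list was 10.14 to 10.55 in control cortex and 9.86 to 10.45 in treated cortex. In medulla it was 7.11 to 8.83 in control rats and 6.57 to 7.996 in treated rats, overlapping. Slc34a1, the sodium-phosphate carrier of this segment, had effects of -0.04 in cortex and -1.13 in medulla (adjusted p = 0.947 and 0.0982). Thick ascending limb genes had a median of -0.62, with effects of -0.32 in cortex and -0.92 in medulla, and 12 of 13 tissue differences were negative. In the 6 thin limb genes the median was -0.85, and Cldn4, a claudin of tight junctions, rose in cortex (1.17, adjusted p = 0.0302) with a medulla effect of 0.10.

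Genes of osmoadaptation, which let cells of the hypertonic medulla gather organic osmolytes and keep proteins folded, had median effects of 0.23 in cortex and -0.45 in medulla and a median tissue difference of -0.73 over 11 genes. None passed in either tissue. The myo-inositol carrier Slc5a3 had effects of 0.70 and -0.47 in cortex and medulla, the small heat shock protein Cryab 0.51 and -0.45, and aldose reductase Akr1b1 0.32 and -0.99. Their tissue differences were -1.17, -0.96 and -1.31 (adjusted p = 0.128, 0.134 and 0.212). Of the 11 genes, 6 had a positive value in cortex with a negative one in medulla, and none the reverse.

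The 14 genes of cholesterol synthesis showed 13 negative tissue differences with a median of -0.43. Effects had a median of 0.0026 in cortex and of -0.47 in medulla, where Tm7sf2 and Msmo1 fell. Msmo1, a sterol oxidase, had a medulla effect of -0.86 (adjusted p = 0.0353) and a tissue difference of -0.78 (adjusted p = 0.0979). The mean of the list was 7.90 to 8.16 in control medulla and 7.42 to 7.87 in treated medulla, without overlap, and 7.15 to 7.40 and 7.23 to 7.34 in cortex. In the 21 genes of glycolysis and hypoxia 19 values were negative (median -0.36), and in the 16 of the unfolded protein and integrated stress response 15 were (median -0.38). In the 23 genes of oxidative phosphorylation the median was -0.0037.

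The epithelial injury and repair list had 9 members higher in cortex and 2 higher in medulla (Krt19 and Cd44, which rose in both), and none of its 22 members passed the test of the tissue difference. The median effect was 0.75 in cortex and 0.41 in medulla, and 18 of 22 tissue differences were negative (median -0.26). Galectin 3 (Lgals3) and keratin 18 (Krt18) rose in cortex by 1.48 and 1.57 (adjusted p = 0.00415 and 0.00239), with medulla effects of 0.30 and 0.45 and tissue differences of -1.18 and -1.12 (adjusted p = 0.138 and 0.189). Lgals3 was 6.03 to 6.55 in control cortex and 7.52 to 8.55 in treated cortex, under its medulla levels of 8.30 to 9.90 in control rats. Control cortex Krt18, 4.65 to 5.60, lay under the array medians and is not shown to lie above background. Keratin 8 (Krt8), the partner of Krt18, had a tissue difference of -0.03 (-0.51 to 0.44, adjusted p = 0.952). The mean of the list was 6.72 to 7.05 in control cortex and 7.45 to 8.39 in treated cortex, and 8.32 to 8.80 and 8.76 to 9.21 in medulla.

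Lists of the matrix and of other cells gave no call for the tissue difference. The median was -0.12 for interstitial matrix (20 genes), -0.11 for basement membrane (12), -0.04 for metzincins and their inhibitors (27) and -0.05 for TGF-beta, BMP and CCN (29). For macrophages and dendritic cells it was 0.47 over 15 genes, of which 13 were positive, with 3 members higher in medulla (Cd68, C1qa and Mrc1) and 1 in cortex (Lgals3). For MHC class II, which presents antigen to T cells, all 9 genes were positive with a median of 0.71, and neither tissue had a call. The mean level of the macrophage list in medulla was 6.63 to 7.82 in control rats and 7.78 to 8.37 in treated rats. Endothelial genes had a median of -0.40, with 13 of 14 negative, and podocyte genes one of 0.03. T cell and B cell genes had a median of 0.24, interferon-stimulated genes -0.27, cell cycle genes 0.33, genes of Wnt and beta-catenin -0.16, smooth muscle, pericyte and myofibroblast genes -0.16, genes of prostaglandin synthesis and receptors -0.14 and those of sodium pump and potassium channels -0.15. Markers of tissue that could adhere to the portions, urothelium, red blood cells and fat or adrenal, had medians of 0.40, 0.14 and -0.71 over 3, 4 and 5 genes.

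**Figure D5:**
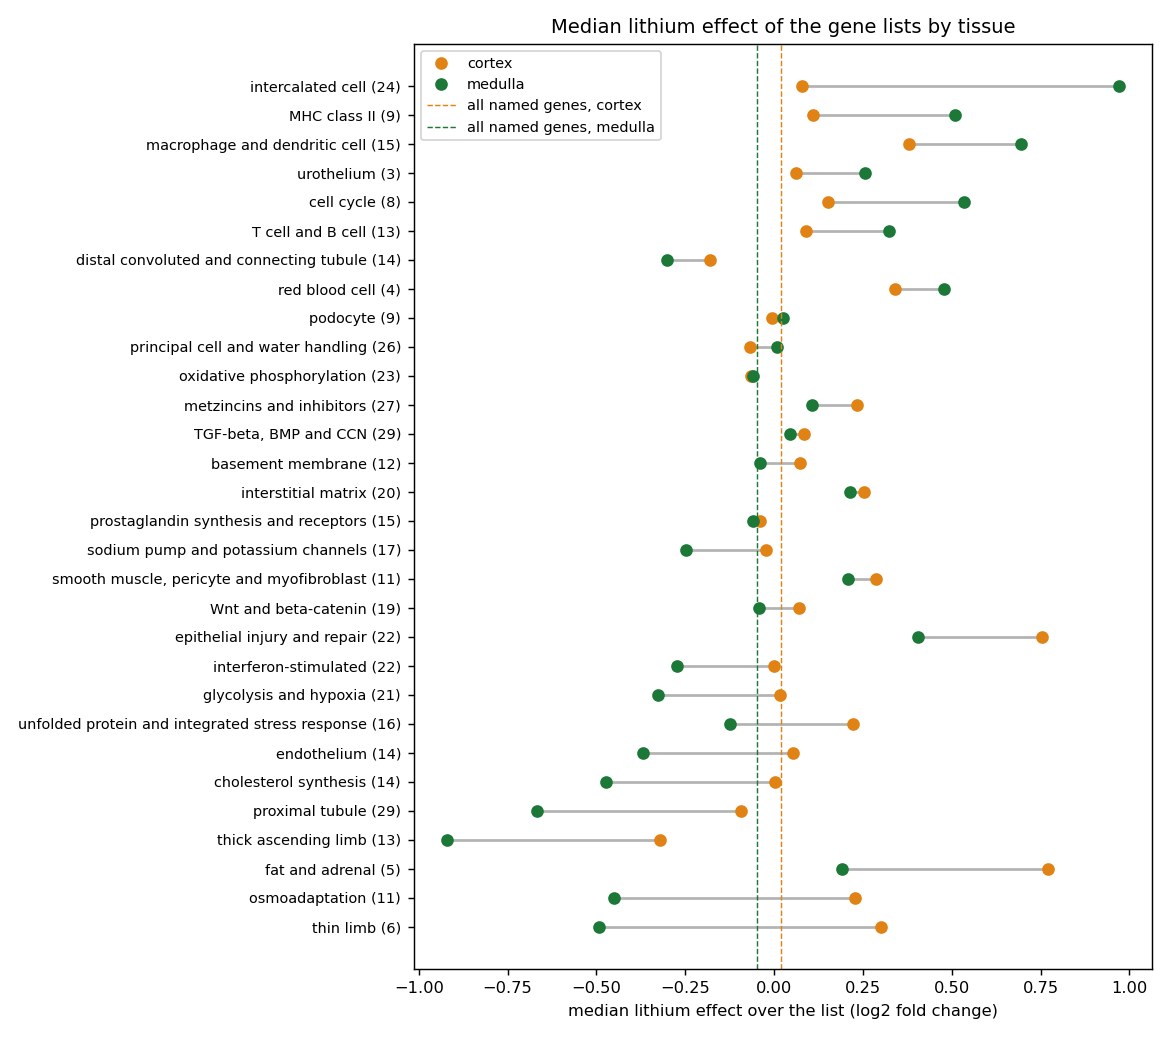
Median lithium effect (treated minus control, log2 fold change, horizontal axis) over the tested genes of each of the 30 lists in cortex (orange) and medulla (green), with the number of genes in brackets and dashed lines at the medians of all named genes. Lists are ordered by the median tissue difference, from the intercalated cell list (0.97 in medulla and 0.08 in cortex) to the thin limb list. Medians carry no test.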

How the data were processed

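Total RNA of cortex and medulla portions was hybridised to Affymetrix rat arrays, which the methods call both Rat Gene 1.0 ST and Rat Exon 1.0 ST. The deposited values are log2 signal intensities. The authors processed the arrays with Partek, using RMA for background correction, followed by quantile normalization and median polish, took out the effect of scan date by analysis of variance in each tissue, and formed 28894 transcript clusters as means of their probe sets. In the submitters' processing notes the build rn4 is named beside RMA and Partek. Removing scan date takes out differences between scan groups. In the fits within a tissue, keeping scan group counts the degrees of freedom it used. The fit of the tissue difference kept the 3 groups of the medulla arrays. It did not count the cortex group of animal 17, whose cortex values are a mean, so its errors can be too small. Without animal 17, 5 clusters passed, all among the 14.

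The 24 arrays were paired by the number in their titles, which was read as naming 1 animal. How far the arrays of an animal deviate together from their group means was checked in the 11 animals with 2 measured tissues, where the correlation ran from -0.06 to 0.42 and was over 0.1 in 6. The cortex array of the same number was the best match of the medulla array within the diet in 5 of the 11. Scan groups were recovered from directions without residual variance, as 3 groups in medulla and 4 in cortex, where animal 17 stood alone. Clusters were named through the platform annotation, in which 15097 clusters had 1 symbol, 323 several and 13474 none. For genes with several clusters, the one with the highest mean over all arrays was used, which gave 14324 genes. Of the 15097, 15067 matched a RefSeq gene identifier.

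The tissue difference was tested with the lmFit and eBayes functions of limma 3.58.1 (R 4.3.3) on the medulla minus cortex log2 difference of each animal, with diet and scan group as terms and 8 residual degrees of freedom. The effects within tissues were fitted likewise on 12 arrays each, of which the cortex array of animal 17 had no weight because it formed its own scan group. P-values were adjusted by Benjamini-Hochberg over the 16388 clusters tested, with a threshold of 0.05. All intervals are limma's at 95%. They cover the spread between animals, and their number limits the precision. Exact permutation tests ran over all 924 divisions of the animals with numpy 2.4.6, and correlations were computed with scipy 1.17.1. Figures were drawn with matplotlib 3.10.9 in Python 3.11.15. The fits were tested on simulated data that took the recovered scan groups as given. The recovery of the scan groups was not tested in this way.

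The members and gene lists were chosen with earlier results of these data known. Since 9 named clusters passed, the rule named those 9, filled up to the 10 smallest unadjusted p in each direction, and Krt19, Aqp2, Ccn3, Mmp2 and Cd44 in any case. Alternatives were a fit without scan group, without the pairing by animal, with other filters, with median-centred or again quantile-normalised arrays, with limma's trend and robust options, and with each animal left out.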

Additional observations from a re-analysis of the deposited data

Results flagged for a closer look

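The lithium effect in medulla differed from that in cortex by the test of the difference itself in 14 clusters. On the log2 scale, as medulla minus cortex, the difference was 2.31 for Defb11, 1.86 for Kcne1, 2.00 for Adm2, 1.74 for Ccl28, 1.35 for Nt5c1a, 1.39 for Vsig1, -1.60 for Anxa5, 0.85 for Arrdc4 and 1.57 for Klk1. For the 5 clusters without a gene symbol it was 1.49, 0.96, 0.99, 1.75 and -0.70. Adjusted p and levels in each animal group are given in the report, and the values with 1 animal left out stand beside them.

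A single animal stood far from the others of its group for 5 of the 25 genes named by rule, in 5 of 100 groups examined, where chance gives about 1 in 20. Treated animal 6 had the lowest medulla signal of Nt5c1a, 6.00, against 6.48 to 6.68 in the other treated rats, and of Ccn3, 9.01, against 9.93 to 10.24. Control animal 30 had the highest medulla signal of Klk1, 7.83 (control median 7.25). Treated animal 19 stood apart in cortex with 6.53 for Tm7sf2, the lowest of the 5 treated values, and 7.12 for Cd44, the highest of them.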

How the results depend on the processing

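The 14 clusters and the direction of each of the 9 named genes were kept without the scan group, which gave 345 clusters (155 higher and 190 lower, against 12 and 2), 305 calls in cortex, 1008 in medulla, 76 of opposite sign, 27 of cortex, 208 of medulla, 14 of the same direction and 29 list genes against 2. Without the replicate block of the animal, that is with the arrays unpaired, 15 clusters passed (14 higher and 1 lower) and 4 list genes, and without block and scan group 357, with 95, 25, 212 and 10 in the 4 classes and 29 list genes. The pairing rests on the numbers in the titles, each of which was read as naming 1 animal. Without a filter the classes of opposite sign, of cortex and of the same direction held 2, 2 and 1 clusters and the lists 1 called gene. A filter at a log2 of 7 left 5 clusters (opposite 2, cortex 0, medulla 2, same direction 1, lists 0), and a bound of 6 in both tissues 5 (1, 0, 2, 1 and 0). Median centring left 1 cluster of the same direction and 1 list gene and moved the medulla calls to 98 higher and 91 lower from 130 and 55. Repeating the quantile normalization left 8 clusters, all higher (opposite 2, same direction 1, lists 1). Of the 9 named genes, Arrdc4 and Klk1 lost their call unpaired, Anxa5, Arrdc4 and Klk1 without a filter, Vsig1, Arrdc4 and Klk1 on median centring, Vsig1, Anxa5, Arrdc4 and Klk1 on repeated normalization and Klk1 with trend and robust options. Of the 6 that met each stricter filter, Defb11, Adm2 and Ccl28 passed at 7 and Adm2, Ccl28 and Nt5c1a at 6 in both tissues. Limma's trend and robust options gave 0 clusters of cortex, 7 of medulla and 4 of the same direction. Without treated animals 6 and 17, chosen after seeing the data, 2 clusters had opposite signs and 0 lay in cortex.

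With 1 animal left out, the tissue difference was called in 5 to 61 clusters, lithium effects in cortex in 37 to 101 and in medulla in 50 to 1029, and list genes in 1 to 7. The classes ran from 2 to 9 (opposite), 0 to 2 (cortex), 1 to 36 (medulla) and 0 to 6 (same direction). The tissue difference of Cd44, -0.10 with all animals, ran from -0.21 without control animal 30 to 0.014 without control animal 16, and was 0.0032 without treated animal 19. Of 568 values of named genes under the alternatives, 443 kept their direction and side of the threshold, 67 lost their call, 56 gained one and 2 reversed. The causes were not tested. The fits rest on 6 animals a diet, 5 of them with cortex values of their own under lithium, and on signals without a background measurement.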
